A study of Mus musculus with 6 samples.

Results

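Nuclear receptor genes were followed in Atoh1-lineage cells of the embryonic mouse hindbrain. The 44 receptor genes considered cover receptor subfamilies 0 to 6, and a gene was included when a probe set of the platform annotation named it alone. This gave 108 probe sets for 42 of the 44 genes, out of 45101 probe sets and 18193 singly named genes on the array; the other 2 listed genes, Nr1h2 and Nr2e3, were not analysed here. A gene is described by its brightest probe set, the one with the highest mean log2 signal, and its other probe sets are given where they differ.

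All samples were Swiss Webster embryos carrying Atoh1-CreER and an EGFP reporter (RCE), in which oral tamoxifen (4 mg for a dam of 35 g) turns on EGFP permanently in cells that then express Atoh1, the proneural factor of the rhombic lip. Tamoxifen at E10.5 marked the early group, and tamoxifen at E13.5 marked the late group. In both groups the r1/isthmus region (rhombomere 1 and the midbrain-hindbrain border) was dissected at E14.5, and EGFP-positive cells were sorted for total RNA, with 3 samples per group and 1 Affymetrix array per sample. The comparison asks how cells that expressed Atoh1 early differ from those that expressed it late, so the day of labelling and the time from labelling to collection cannot be told apart. The labels do not say whether samples came from separate litters or pooled embryos, so the spread behind each p-value is that of these samples alone and may be technical.

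Nuclear receptors are transcription factors with a zinc-finger DNA-binding domain and a domain that in many members binds a small lipophilic ligand. Hormone receptors such as those for thyroid hormone and retinoic acid change partners from corepressors to coactivators when ligand binds, and many pair with a retinoid X receptor on DNA. Orphan members, among them the NR4A, COUP-TF and oestrogen-related groups, act largely through their own abundance. In developing hindbrain, retinoic acid receptors take part in patterning and COUP-TF and ROR factors in neuronal differentiation.

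Array medians lay between 97.7 and 112 units of MAS5 signal, the linear signal that Affymetrix software derives per probe set. Pairs of late arrays had Spearman correlations of 0.938 to 0.945 across probe sets, pairs of early arrays 0.874 to 0.893, and early-late pairs 0.845 to 0.886. The Actb control probe sets, whose 3′ over 5′ ratio is a sign of RNA quality, gave 17.4 to 26.2 in early and 12.9 to 16.1 in late arrays, and the Gapdh controls gave 10.6 to 13.2 and 9.47 to 12.1, which overlap; the part of these ratios in the differences below was not tested. Early replicate 3 stood apart in blood signal: Hbb-y, an embryonic globin, read 4657 units there against 13.01 and 4.11 in the other early arrays and 233 to 326 in the late arrays. Late replicate 3 stood apart in Ttr, the thyroid hormone carrier of choroid plexus, at 1547 units against 20.5 and 13.2 in the other late arrays and 26.2 to 151 in the early arrays. Atoh1 itself read 397 to 936 units in early and 6819 to 9733 in late arrays, which follows the labelling.

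Of the 42 measured receptors, 22 were tested, meaning that their signal lay above the array median in at least 3 of the 6 arrays. With higher signal in the early group 6 passed (Nr4a2, Nr4a3, Esrrb, Esrrg, Thra and Nr2f1), and 5 passed with higher signal in the late group (Esr1, Rxra, Nr2c1, Nr1d2 and Nr3c1), at a limma Benjamini-Hochberg adjusted p below 0.05. These 11 are 50% of the tested receptors, where the same rule called 30.2% of all 11064 tested genes, 16.2% higher in early and 14% in late cells. The median log2 difference, early minus late, was 0.40 over the 22 receptors and -0.03 over all tested genes. The 3 arrays of one group exceeded every array of the other in 14 of the 22, with 9 higher in early and 5 in late cells, against 52.4% of all tested genes (26.0% and 26.4%). The 5 receptors higher in late cells fell to 3 without early replicate 1 or 3, and to 1, Rxra, without late replicate 1, 2 or 3. With early replicate 3 and late replicate 3 both left out, only Nr4a2 and Nr4a3 still passed (limma adjusted p = 0.0554 for Esrrg, the nearest of the other 9). Esrrb, Nr4a3 and Pgr met the filter through their early arrays alone, so that any of these 3 that was tested had to be higher there.

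**Figure D1:**
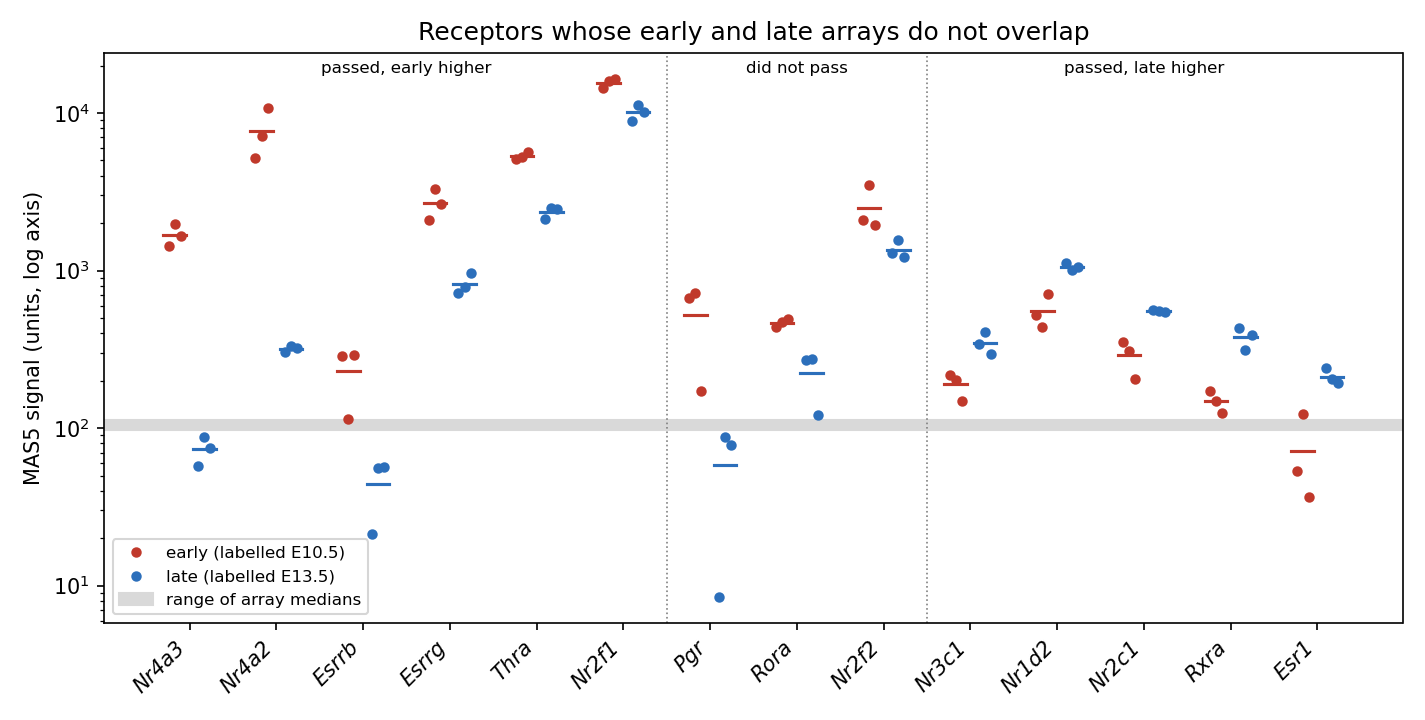
MAS5 signal on a log axis for the 14 receptors whose early (red) and late (blue) arrays did not overlap, with 1 point per array, a bar at the group mean and a grey band for the range of array medians (97.7 to 112 units). Nr4a2 and Nr4a3 show the widest gaps, and Nr4a3, Esrrb and Pgr lie wholly below the grey band, and Esr1 partly, in their dimmer group.

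The NR4A family gave the widest separation. Nr4a2 and Nr4a3 were each about 23-fold higher in early cells, whereas Nr4a1 did not pass. These factors have a ligand pocket closed by side chains and are switched on transcriptionally, often as immediate early genes downstream of cAMP and calcium; Nr4a2 (Nurr1) is also a maintained factor of several neuron types, including midbrain dopamine neurons. Nr4a2 read 5189, 7154 and 10703 units in the early arrays against 306, 330 and 324 units in the late arrays. The lowest early array was thus far above every late array, and the late arrays lay within a narrow range. The difference was 4.52 ± 0.29 on the log2 scale (SE), or 23.0-fold (limma adjusted p = 0.00113), and 3 other tested Nr4a2 probe sets also passed, with differences of 4.71, 3.65 and 2.67.

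Nr4a3 (Nor1) read 1438, 1973 and 1654 units in the early arrays, and 57.6, 87.5 and 74.5 units in the late arrays. The late values all lay below their array medians, close to background, so the size of the fold rests on dim signals. The difference was 4.54 ± 0.23 (SE), or 23.2-fold (limma adjusted p = 0.00112), and 16.3-fold when dim late signals were set to their array median. Nr4a1 (Nur77), the most widely studied immediate early member, read 102, 202 and 507 units in the early arrays against 95.5, 148 and 43.8 units in the late arrays. Its groups overlapped and the difference of 1.36 ± 0.69 did not pass (limma adjusted p = 0.199). Its highest value came from early replicate 3, the array with the high Hbb-y signal. The calls of Nr4a2 and Nr4a3 held without any 1 array (limma adjusted p up to 0.00895).

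The 3 NR4A promoters are shown because the family contains the 2 receptors with the largest differences and 1 close relative that did not pass. Each line gives the 250 bases before the transcription start in GRCm38.p6 (RefSeq), 5′ to 3′ on the gene's strand. The windows are chr15:101266596-101266845 on the plus strand for Nr4a1, chr2:57124004-57124253 on the minus strand for Nr4a2 and chr4:48045055-48045304 on the plus strand for Nr4a3. Capitals mark TGACG on either strand (read as CGTCA on the other), the half-site of the cAMP response element TGACGTCA.
Nr4a1: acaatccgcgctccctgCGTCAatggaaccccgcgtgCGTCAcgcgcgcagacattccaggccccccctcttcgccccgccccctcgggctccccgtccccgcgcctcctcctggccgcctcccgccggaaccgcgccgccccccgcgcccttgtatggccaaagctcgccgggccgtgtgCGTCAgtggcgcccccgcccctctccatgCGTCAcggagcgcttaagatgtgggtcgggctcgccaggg
Nr4a2: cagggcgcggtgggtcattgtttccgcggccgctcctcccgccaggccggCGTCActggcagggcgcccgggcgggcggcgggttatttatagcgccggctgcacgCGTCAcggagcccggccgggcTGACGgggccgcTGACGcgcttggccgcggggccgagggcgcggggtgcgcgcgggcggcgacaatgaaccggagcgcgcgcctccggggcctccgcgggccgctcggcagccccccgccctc
Nr4a3: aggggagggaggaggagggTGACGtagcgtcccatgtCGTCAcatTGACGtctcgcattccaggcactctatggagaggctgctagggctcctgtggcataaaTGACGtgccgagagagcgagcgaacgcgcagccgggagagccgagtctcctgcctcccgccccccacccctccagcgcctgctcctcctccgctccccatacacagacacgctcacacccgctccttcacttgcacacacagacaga
Each of the 3 windows held 4 half-sites and none held the complete 8-letter element, of which the half-site is part. The half-sites of Nr4a1 began 233, 213, 69 and 40 bases before the start, those of Nr4a2 200, 144, 123 and 111 bases before it, and those of Nr4a3 231, 213, 205 and 147 bases before it. At least 4 half-sites occurred in 45 of 32851 windows of the same length over all genes (0.137%), and among the 61 windows of 41 listed receptors only in these 3. The cut-off of 4 is the count found in these 3 windows, so this share is no test of their rarity. The windows over all genes were not matched for GC content, which was 63.6% to 80% in these 3. At least 1 half-site was present in 21.3% of the receptor windows and 17.8% of all windows. The promoter of Nr4a1, which did not pass, therefore carries as many of these letters as those of Nr4a2 and Nr4a3, and a match is a description of the sequence and not of a bound site.

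Because Nr4a1 belongs to the immediate early genes and Nr4a2 to the dopamine neuron programme, both companion lists are given beside the family. Of 10 tested immediate early genes, 3 passed and were higher in late cells, and 7 did not pass, with a median difference of -0.44. Over all tested genes 30.2% passed, a share close to that of this list, and the median difference was -0.03. Klf4 (Krüppel-like factor) read 124 ± 53.1 units in early and 733 ± 25.1 in late cells (SD, n = 3 in each), 6.39-fold apart (limma adjusted p = 0.00508), and Ier2 was 2.37-fold and Btg2, an antiproliferative gene, 2.64-fold higher in late cells. Fos, the prototype of the class, read 1182, 1597 and 1794 units in early and 1139, 1394 and 1065 units in late arrays and did not pass (limma adjusted p = 0.331). The call of Btg2 was lost without early replicate 1 (limma adjusted p = 0.0597) or 3 (0.0517) and without late replicate 1, 2 or 3 (0.0888, 0.0533 and 0.0907).

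Of 9 midbrain dopamine neuron markers, 2 were tested and neither passed; the list's summed signal was 599 to 1262 units in early and 403 to 514 units in late arrays. Th, which encodes tyrosine hydroxylase, read 205, 315 and 235 units in early against 142, 200 and 160 units in late arrays (limma adjusted p = 0.131). Ddc, the decarboxylase of dopamine and serotonin synthesis, read 630, 418 and 95.7 units in early against 129, 89.2 and 4.54 units in late arrays (limma adjusted p = 0.17). The transporter Slc6a3 was above the median in 1 array, and the transcription factors Pitx3, Lmx1a, Foxa1 and Foxa2 in none. The part of dopamine neurons in the Nr4a2 difference was not tested.

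Among the steroid receptor subfamily, which also contains the oestrogen-related orphans, 4 of 6 tested genes passed and the directions were mixed. Of all tested genes 30.2% passed. The oestrogen-related receptors are constitutively active orphans that work with PGC-1 coactivators on genes of energy metabolism. Esrrg read 2086, 3292 and 2636 units in early arrays against 725, 784 and 961 units in late arrays. The groups stood well apart, by 1.68 ± 0.24 (SE) or 3.21-fold (limma adjusted p = 0.00529), and a second tested probe set also passed with a difference of 1.14. The call held without any 1 array (limma adjusted p up to 0.0281).

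Esrrb read 286, 115 and 289 units in early arrays against 21.3, 55.6 and 56.3 units in late arrays. All 3 late values were below their array medians and early replicate 2 was only just above its own. A second tested probe set passed with a difference of 3.10. Both probe sets were above the median in the early arrays alone, so the filter fixed their direction. For the brighter probe set the difference was 2.38 ± 0.54 (SE), or 5.21-fold (limma adjusted p = 0.0232). With dim signals raised to the array median the difference was 2.05-fold and no longer passed (limma adjusted p = 0.064), and the call was also lost without early replicate 1 or 3 (0.0595 for each) and without late replicate 1, 2 or 3 (0.0606, 0.0513 and 0.0536). Esrra, the most ubiquitous of the 3, read 398, 240 and 191 units in early and 299, 278 and 242 units in late arrays, with overlapping groups (difference -0.05 ± 0.30 (SE), limma adjusted p = 0.923).

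Esr1, the oestrogen receptor alpha, was dim but higher in late cells. It read 53.7, 124 and 36.3 units in early arrays against 241, 204 and 193 units in late arrays. Only 1 early array exceeded its median, so the fitted difference of -1.76 ± 0.45 (SE), or 3.40-fold (limma adjusted p = 0.0343), shrank to 1.84-fold with dim signals raised to the median. A second Esr1 probe set read 6.31, 14.6 and 4.13 units in early and 156, 163 and 202 units in late arrays and passed too. This second probe set was above the median in the late arrays alone, so the filter fixed its direction. Its 23.8-fold difference fell to 1.61-fold with dim signals raised to the median. The call of the brighter probe set was lost without early replicate 1 (limma adjusted p = 0.0815) or 3 (0.0602) and without late replicate 1, 2 or 3 (0.111, 0.0958 and 0.0954). Esr2, the oestrogen receptor beta, was between 2.05 and 27.5 units in all arrays and was not tested.

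Nr3c1, the glucocorticoid receptor, was also higher in late cells. It read 219, 202 and 150 units in early arrays against 342, 408 and 297 units in late arrays. The late arrays were all higher, by 0.88 on the log2 scale (early minus late -0.88 ± 0.23 (SE), 1.85-fold, limma adjusted p = 0.0365). Of 2 other tested Nr3c1 probe sets, 1 passed with a difference of -1.87 and the other gave -1.52 without passing. The call was lost without early replicate 2 or 3 (limma adjusted p = 0.0534 and 0.069) and without late replicate 1, 2 or 3 (0.108, 0.125 and 0.0787), and it was lost with a variance trend (0.0559) or array weights (0.054). Nr3c2, the mineralocorticoid receptor, lay between 47.2 and 132 units and was not tested.

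Pgr, the progesterone receptor, had one of the largest fitted differences but did not pass. It read 669, 716 and 172 units in early arrays against 8.49, 88.4 and 77.9 units in late arrays. The groups did not overlap, yet early replicate 3 was far below the other early arrays and the late values were all below their array medians. The difference was 3.49 ± 1.04 (SE), or 11.2-fold, with a limma adjusted p of 0.0536, and 4.22-fold with dim signals raised to the array median, where it passed (0.0188). It also passed without early replicate 3 (limma adjusted p = 0.0489), with centring on the array median (0.048), an offset of 5.97 units added before log2 (0.0391), a variance trend (0.022) or its probe sets averaged (0.0422).

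**Figure D2:**
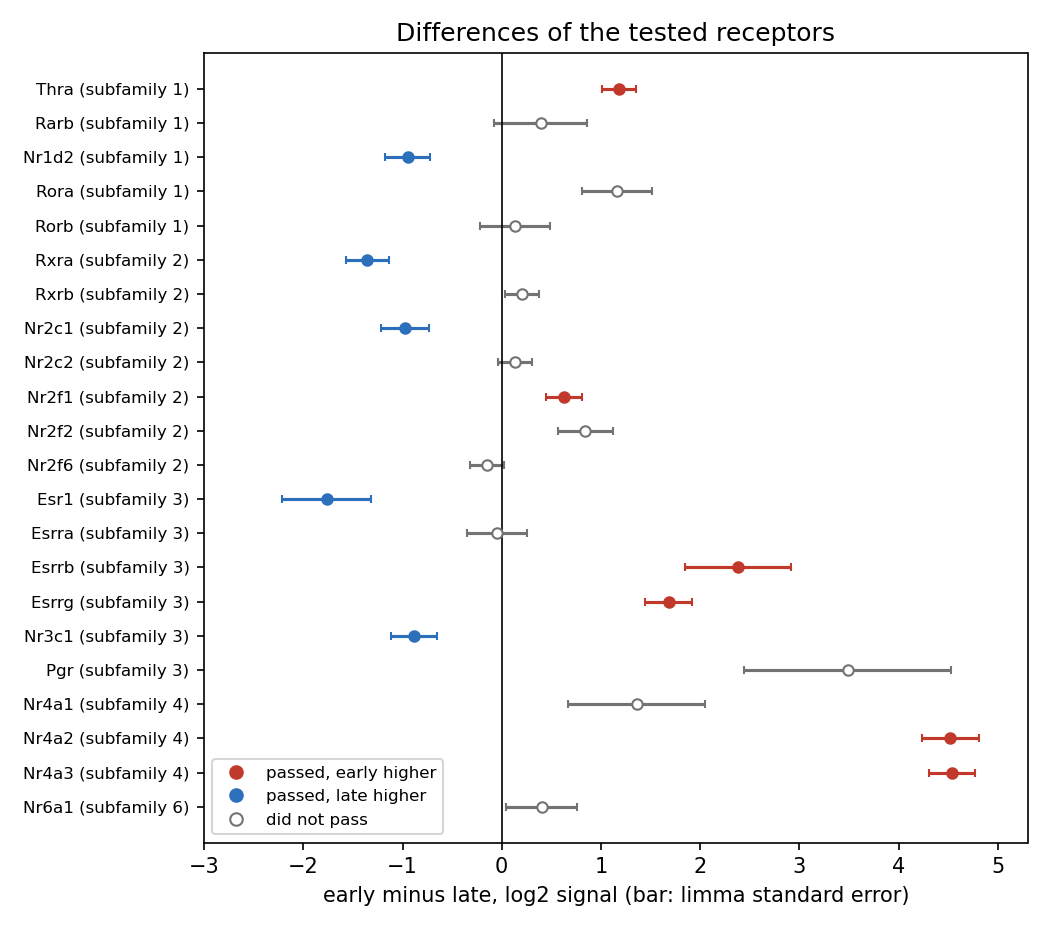
Early minus late log2 difference for the 22 tested receptors in order of subfamily, with limma's standard error as bars. Filled red and blue points passed with higher signal in early and late cells, open points did not pass. The 2 NR4A points near 4.5 lie farthest from 0, and Pgr combines a difference of 3.49 with the widest bar.

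In the subfamily of retinoid X receptors, testicular receptors and COUP-TF factors, 3 of 7 tested genes passed, where 30.2% of all tested genes did. Rxra, a common partner that pairs with thyroid hormone, retinoic acid and sterol receptors, was higher in late cells. It read 171, 148 and 124 units in early arrays against 430, 315 and 388 units in late arrays. The arrays separated by -1.35 ± 0.22 (SE), or 2.56-fold (limma adjusted p = 0.0076), and the call held without any 1 array (up to 0.0405). A second tested Rxra probe set did not pass (-0.18, limma adjusted p = 0.684), and the mean over all Rxra probe sets did not pass either (-0.28, adjusted p = 0.483). Rxrb read 2347, 2052 and 2285 units in early and 1756, 2106 and 1942 units in late arrays and overlapped between groups (difference 0.21 ± 0.17 (SE), limma adjusted p = 0.423). Rxrg was above the array median in 2 early arrays alone (118, 94.2 and 234 units in early, 51.9, 62.4 and 41.4 units in late arrays) and was therefore not tested.

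The COUP-TF factors, which repress or activate through direct repeats and guide regional and neuronal identity, passed in 1 of 3 tested genes, Nr2f1. The share over all tested genes was 30.2%. Nr2f1 (COUP-TFI) read 14344, 15920 and 16465 units in early arrays against 8908, 11234 and 10161 units in late arrays. Every early array was above every late array, but the difference was modest at 0.63 ± 0.18 (SE), or 1.55-fold (limma adjusted p = 0.0481). It was lost without early replicate 1, 2 or 3 (limma adjusted p = 0.0593, 0.0773 and 0.0918) and without late replicate 1, 2 or 3 (0.158, 0.0974 and 0.147). Quantile normalization (0.0636), centring on the array median (0.079) and array weights (0.0687) also ended it. Nr2f2 (COUP-TFII) read 2084, 3483 and 1952 units in early and 1299, 1557 and 1217 units in late arrays. These did not overlap but did not pass (difference 0.84 ± 0.28 (SE), limma adjusted p = 0.0698), except with dim signals raised (0.0451), with the filter at the 70th percentile (0.0368) or with a variance trend (0.0256). Of 5 other tested Nr2f2 probe sets, 1 passed with a difference of 1.04 and another gave -0.45. For Nr2f6, the third member, the brightest probe set overlapped between groups (difference -0.15 ± 0.17 (SE), adjusted p = 0.564) whereas the second was higher in late cells, at 346, 495 and 405 against 248, 110 and 189 units (limma adjusted p = 0.0408).

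The testicular receptors are orphans that bind direct repeats and take part in silencing embryonic genes. Nr2c1 (TR2) was higher in late cells, at 563, 558 and 542 units against 354, 308 and 205 units in early arrays. The late arrays were nearly identical, and the difference was -0.98 ± 0.24 (SE), or 1.97-fold (limma adjusted p = 0.0324). Each fit that left out a late array lost the call (limma adjusted p = 0.103, 0.102 and 0.104). The other 3 tested Nr2c1 probe sets did not pass, with differences of 0.17, 0.45 and -0.29, nor did the mean over all Nr2c1 probe sets (-0.54, 0.239). Nr2c2 (TR4) read 5547, 4590 and 5154 units in early and 4653, 4895 and 4383 units in late arrays and did not pass (0.13 ± 0.17 (SE), limma adjusted p = 0.609), although 1 of its 3 other tested probe sets passed with a difference of 0.79.

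Of 5 tested receptors in the thyroid, retinoic acid, Rev-erb and ROR subfamily, 1 passed in each direction. Over all tested genes, the share that passed in either direction was 30.2%. Thra, the main thyroid hormone receptor of embryonic brain, read 5086, 5270 and 5671 units in early arrays against 2130, 2493 and 2441 units in late arrays. The arrays within each group were close and the groups were 1.18 ± 0.17 (SE) apart, or 2.27-fold (limma adjusted p = 0.00552), without any loss of the call when 1 array was left out (up to 0.0312). Neither of the other 2 Thra probe sets passed (differences 0.23 and -0.48), and with the mean over the 3 the call was lost (0.31, limma adjusted p = 0.361). Which Thra transcripts each probe set reads was not examined. Thrb, the beta receptor, lay between 49.4 and 88.8 units and was not tested.

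Nr1d2 (Rev-erb beta), a haem-binding repressor of the circadian clock, read 524, 438 and 711 units in early arrays against 1112, 1004 and 1052 units in late arrays. All late arrays were higher, by a difference of -0.95 ± 0.23 (SE) or 1.93-fold (limma adjusted p = 0.0285). The call was lost without early replicate 1 (limma adjusted p = 0.061) and without late replicate 1, 2 or 3 (0.0992, 0.0836 and 0.0988). The gene's only other probe set was below the median in all 6 arrays, and the mean over the pair no longer showed a difference (0.00076, adjusted p = 0.999). Nr1d1 (Rev-erb alpha) was between 8.13 and 86.6 units and was not tested.

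Rora, an activator at Rev-erb target sites that Purkinje cells need, read 437, 471 and 492 units in early arrays against 272, 273 and 122 units in late arrays. The groups did not overlap, but the difference of 1.16 ± 0.35 (SE) did not pass (limma adjusted p = 0.0545). It passed with the offset (0.0495), with dim signals raised (0.0308), with the filter at the 70th percentile (0.0277) and with a variance trend (0.0385). None passed of the 4 other tested Rora probe sets, whose differences ran from -0.26 to 1.59. Rorb, a relative of cortex and retina, read 380, 147 and 241 units in early and 213, 216 and 221 units in late arrays and did not pass (0.13 ± 0.35 (SE), limma adjusted p = 0.808). Rarb, a retinoic acid receptor that is itself induced by retinoic acid, read 347, 107 and 241 units in early and 114, 180 and 193 units in late arrays, with full overlap (0.39 ± 0.47 (SE), limma adjusted p = 0.577). Rara and Rarg stayed at or below 88.1 units and were not tested.

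Of the remaining receptors, Nr6a1 (Gcnf), an orphan of germ and embryonic stem cells, read 96.7, 187 and 205 units in early and 130, 139 and 88.6 units in late arrays and did not pass (limma adjusted p = 0.442). The 20 untested receptors lay between 1.85 and 234 units, and 15 of them were at or below the array median in all 6 arrays. Those 15 included Ppara and Pparg (fatty acid sensors), the bile acid receptor Nr1h4, and the vitamin D and xenobiotic receptors Vdr, Nr1i2 and Nr1i3. Ppard and Nr1h3, an oxysterol receptor, each exceeded the median in 1 late array. Nr5a1 (Sf1), a gonadal and adrenal factor, did so in 1 late array, and Nr0b1 (Dax1), its repressor, in none. Nr2e1 (Tlx), a factor of forebrain neural stem cells, read 12.2 to 56.9 units. Nr5a1 read 18.5, 25.5 and 89.98 units in early and 140.7, 19.7 and 45.2 units in late arrays. Nr5a2 (Lrh1) read 48.1, 56.3 and 89.2 units in early and 22.2, 90.2 and 26.9 units in late arrays, and Nr0b2 (Shp), which lacks a DNA-binding domain, 63.6, 51.5 and 83.5 units in early and 34.9, 90.7 and 89.5 units in late arrays. A signal below the array median is not proof that a transcript is absent, only that it was not tested.

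At the level of probe sets, 52 of 108 were tested; 13 passed with higher signal in early and 8 in late cells, or 40.4%, where 26.0% of all 23471 tested probe sets passed (3158 higher in early and 2946 in late cells, the latter 12.6%). The groups did not overlap for 16 probe sets higher in early and 8 in late cells, against 46.9% of all tested probe sets (22.1% and 24.8%). Opposite calls within 1 receptor did not occur. The 11 receptors that passed had 14 other tested probe sets, of which 7 passed in the same direction and none in the other (limma); of the 7 that did not pass, 4 shared the sign of the brightest probe set and 3 did not. All tested probe sets of Nr4a2, Esr1, Esrrb and Esrrg passed, while Thra, Rxra and Nr2c1 rested on their brightest probe set alone. The second probe sets of Esr1 and Esrrb were above the median in 1 group alone, so the filter fixed their direction and they add no separate evidence of it. The part of probe position along the transcript in these disagreements was not tested.

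**Figure D3:**
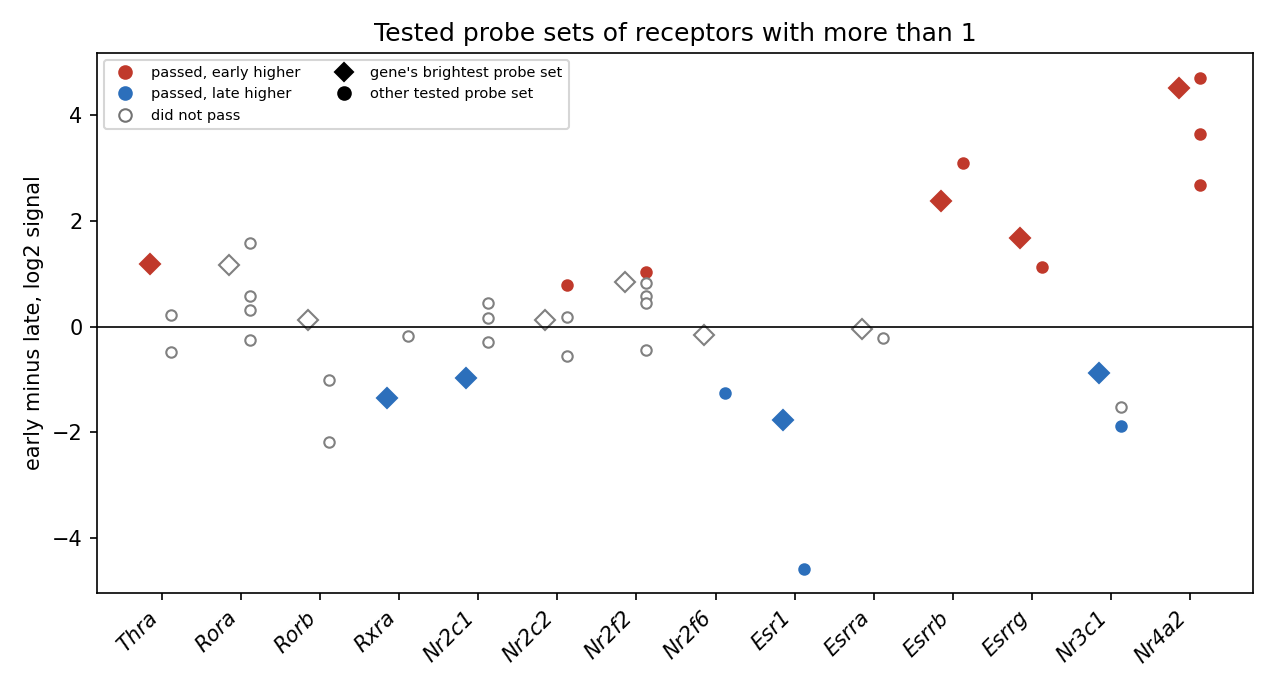
Early minus late log2 difference of every tested probe set for the 14 receptors with at least 2 of them. Diamonds are a gene's brightest probe set and circles the others; filled red and blue passed with higher signal in early and late cells, open did not pass. All 4 Nr4a2 points lie between 2.67 and 4.71, while Thra, Rxra and Nr2c1 each have a filled diamond beside open circles.

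The lists on receptor ligands had 2 of 8 retinoid, 0 of 1 thyroid hormone and 3 of 5 steroid and chaperone genes that passed in limma, beside 30.2% of all tested genes. Of 8 tested retinoid genes, 2 passed, both higher in late cells, and 6 did not (median difference -0.18). Crabp2, a carrier that delivers retinoic acid to its receptors, read 7.41, 16.1 and 13.46 units in early arrays against 156, 131 and 168 units in late arrays. It was 12.9-fold higher in late cells (limma adjusted p = 0.00162), but 1.40-fold with dim early signals raised to the array median. Crabp2 and Rbp4 were above the median in the late arrays alone, so the filter fixed their direction. Rbp4, the retinol carrier, was 8.27-fold higher in late cells at 209 ± 29.2 against 32.9 ± 27.3 units (SD, n = 3; 1.93-fold with dim signals raised), and leaving out any late array ended its call (limma adjusted p = 0.0682, 0.0599 and 0.0741). The retinoic acid synthases Aldh1a1, Aldh1a2 and Aldh1a3 stayed below the medians on all arrays.

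Of 5 tested genes of steroid metabolism and receptor chaperones, 3 passed and were higher in late cells (median difference -0.81). Hsd11b2, the dehydrogenase that inactivates glucocorticoids, read 546, 775 and 681 units in early arrays against 5717, 4480 and 5475 units in late arrays. The groups stood 7.87-fold apart, at -2.98 ± 0.21 (SE) on the log2 scale (limma adjusted p = 0.00116), so that the enzyme was higher in the same late arrays in which Nr3c1 was 1.85-fold higher. A link between these genes was not tested. Stip1 and Fkbp4, cochaperones of the Hsp90 complex that holds steroid receptors, were 1.86-fold and 1.76-fold higher in late cells. Stip1 no longer passed without late replicate 1 or 3 (limma adjusted p of 0.0857 and 0.0942), nor Fkbp4 without any 1 array (0.0505 to 0.16). Only 1 of 6 measured thyroid hormone transport and conversion genes was tested, Slc16a10, which did not pass (limma adjusted p = 0.145).

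Coactivators included 3 genes higher in early and 2 in late cells among 17 tested (median difference -0.14), where 30.2% of all tested genes passed. Ppargc1a, which encodes PGC-1 alpha, the coactivator of oestrogen-related and PPAR receptors, read 1733, 2343 and 1751 units in early arrays against 380, 166 and 341 units in late arrays. This was a 6.92-fold difference (2.79 ± 0.36 (SE), limma adjusted p = 0.00388), and it held without any 1 array (up to 0.0179). Esrrg and Esrrb had the same direction, Esrrb tested through its early arrays alone. Esrra did not pass (-0.05, limma adjusted p = 0.923), and the PPAR genes were not tested. A link between the coactivator and these receptors was not tested. Its relative Ppargc1b, tested through its early arrays alone, was 4.57-fold higher in early cells (1.92-fold with dim late signals raised; lost without early replicate 1, 2 or 3 and late replicate 3, limma adjusted p = 0.0685, 0.0698, 0.0592 and 0.0901). Ncoa3, a p160 coactivator, was 1.94-fold higher in early cells, a call lost without early replicate 3 (limma adjusted p = 0.064) and late replicate 1 or 2 (0.105 and 0.106). Pnrc1 and Pnrc2, small proline-rich coregulators, were 1.97-fold and 2.21-fold higher in late cells, and neither passed when late replicate 1 (limma adjusted p of 0.0623 and 0.0643), 2 (0.0517 and 0.0584) or 3 (0.0703 and 0.0696) was left out.

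Of 9 tested corepressors, 1 was higher in early and 3 in late cells (median difference -0.26), where 30.2% of all tested genes passed. Bcl11a, a zinc-finger factor that was first described as a COUP-TF partner, read 4821, 4375 and 5435 units in early arrays against 1511, 1820 and 1946 units in late arrays, 2.78-fold apart (limma adjusted p = 0.00411). Sin3a, Gps2 and Tbl1x, subunits of histone deacetylase complexes, were 2.22-fold, 1.91-fold and 1.63-fold higher in late cells. Sin3a no longer passed when any late array was left out (limma adjusted p of 0.0939, 0.0671 and 0.0955). That of Gps2 was lost in all but the fit without early replicate 3 (0.0786 to 0.13) and that of Tbl1x without any 1 array (0.0528 to 0.159).

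**Figure D4:**
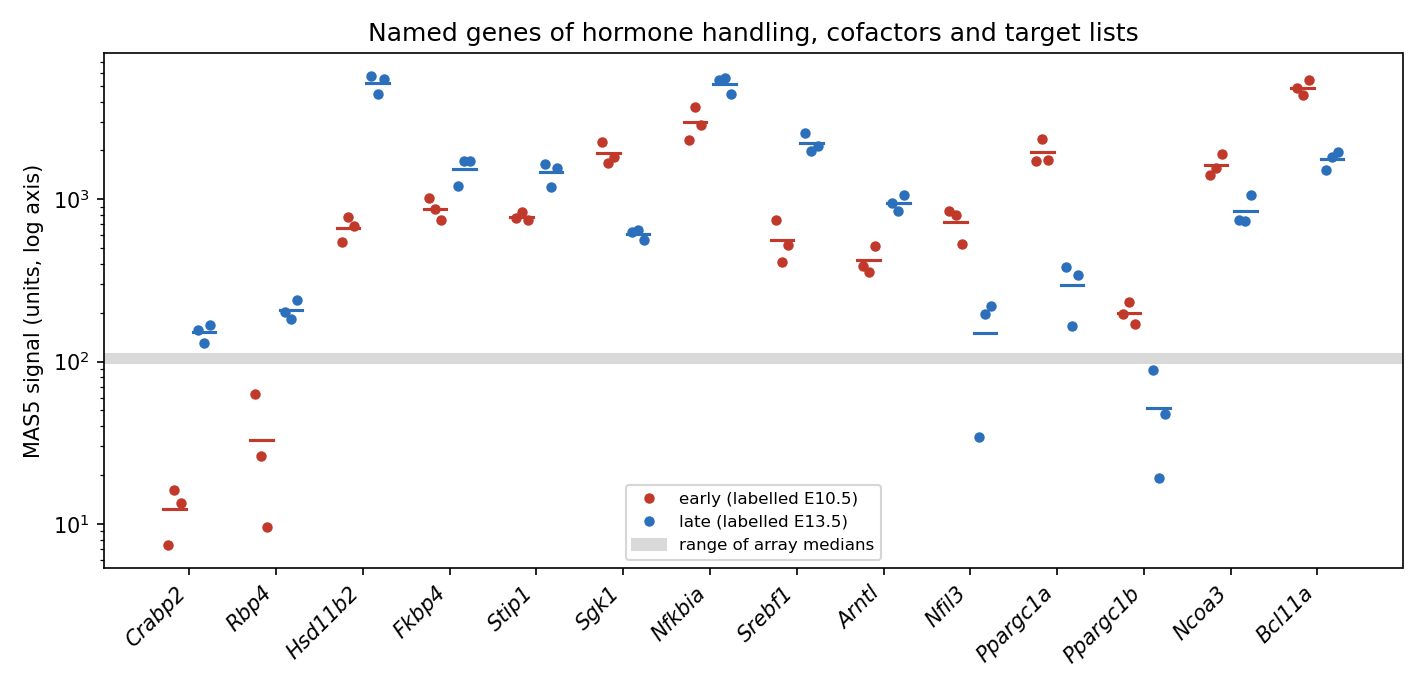
MAS5 signal on a log axis for named genes of ligand handling, cofactors and receptor targets, 1 point per array (red early, blue late), a bar at the group mean and a grey band for the range of array medians. Hsd11b2 and Srebf1 are higher in all late arrays and Ppargc1a, Sgk1 and Bcl11a in all early arrays, while the early points of Crabp2 and Rbp4 lie below the band.

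Most tested target genes did not pass: 3 of 13 clock genes, 1 of 11 sterol and lipid targets and 3 of 11 glucocorticoid and thyroid hormone targets passed, where 30.2% of all tested genes did. Of 13 tested clock genes, which Rev-erb and ROR factors regulate, 2 were higher in early and 1 in late cells (median difference 0.01). Arntl (Bmal1), a clock activator repressed by Rev-erb factors, read 388, 359 and 512 units in early arrays against 953, 851 and 1057 units in late arrays. It was thus 2.29-fold higher in the late arrays (limma adjusted p = 0.0106), in which Nr1d2 was also higher, and it did not pass without late replicate 3 (0.0533). A link of Arntl to Nr1d2 was not tested. Nfil3, a clock output repressor, was 6.24-fold higher in early cells (limma adjusted p = 0.0429), a call kept only in the fit without late replicate 1 (0.0235) and otherwise lost (0.0595 to 0.0983). Csnk1d, a clock kinase, was 1.49-fold higher in early cells, and this was lost without any 1 array (limma adjusted p = 0.0537 to 0.169).

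Among 11 tested sterol and lipid targets 1 passed and 10 did not (median difference 0.04). Srebf1, the sterol regulatory factor driven by liver X and retinoid X receptors, read 742, 411 and 522 units in early arrays against 2570, 1983 and 2140 units in late arrays. It was 4.09-fold higher in late cells (limma adjusted p = 0.00417), and the call held without any 1 array (up to 0.0234). The part of liver X and retinoid X receptors in this difference was not tested. Abca1, another liver X receptor target, read 736, 605 and 840 units in early and 702, 1052 and 462 units in late arrays and did not pass (limma adjusted p = 0.937; chosen after its values were seen).

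Of 11 tested glucocorticoid and thyroid hormone targets, 2 were higher in early and 1 in late cells (median difference -0.26). Sgk1, a kinase induced by corticosteroids, read 2265, 1672 and 1828 units in early arrays against 628, 649 and 565 units in late arrays. This 3.11-fold difference (limma adjusted p = 0.00307) runs opposite to that of Nr3c1 and held without any 1 array (up to 0.0212). The part of Nr3c1 in it was not tested. Cdkn1a was 1.49-fold higher in early and Nfkbia 1.75-fold higher in late cells. Both were close to the threshold (limma adjusted p = 0.0472 and 0.0498); Cdkn1a was lost without any 1 array (0.0721 to 0.163) and Nfkbia in all but the fit without early replicate 2 (0.0943 to 0.153). Klf9, a thyroid hormone target, read 322, 2.10 and 862 units in early and 1258, 1171 and 876 units in late arrays and did not pass (limma adjusted p = 0.254; chosen after its values were seen).

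Markers of cell state separated the groups beside the receptors. All 9 tested cycling markers were higher in late cells, with a summed signal of 4641 to 5802 units in early and 41780 to 43816 units in late arrays. Among 9 rhombic lip and granule precursor markers, 8 were tested and 7 were higher in late cells (sums 24617 to 32245 against 66732 to 72281 units). Zic1, the 1 tested marker that did not pass (limma adjusted p = 0.0608), was the brightest in these sums. Its means were 17921 units in early and 26865 in late cells. Of 10 postmitotic neuron markers, 6 were higher in early cells (sums 98930 to 104357 against 48073 to 55430 units), among them Slc17a6, the glutamate transporter of excitatory neurons, at 3.64-fold. Dcx and Map2 were the brightest in these sums. The other 4 did not pass. Of these, Snap25 and Nefm were higher in all early arrays, and Syt1 overlapped. Rbfox3 was higher in all late arrays, with means of 2193 units in early and 3540 in late cells (limma adjusted p = 0.0607). The part of this shift between cycling and postmitotic cells in the receptor differences was not tested, and in sorted pools fewer cells of a type and less RNA per cell cannot be told apart.

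Markers of other cells were measured for the same reason. The share of all tested genes that passed was 30.2%. GABA neuron markers Gad1 and Gad2 were 2.63-fold and 3.23-fold higher in early cells, with the 4 measured markers summing to 786 to 1526 units in early and 293 to 461 units in late arrays. The call of Gad1 was kept only without early replicate 2 (limma adjusted p = 0.00631; otherwise 0.103 to 0.152), and Gad2 did not pass without late replicate 1 or 3 (0.0666 and 0.0667). Of 4 tested oligodendrocyte precursor markers, Olig1 (13.6-fold) and Olig2 (2.998-fold) were higher in early and Pdgfra (3.27-fold) in late cells, and Sox10 did not pass. The sums were 2708 to 3143 against 864 to 1110 units. Olig1, with means of 2149 units in early and 164 in late cells, made up most of the early sum. Pdgfra no longer passed without late replicate 1 or 3 (limma adjusted p of 0.0606 and 0.0509). Of 5 tested radial glia and astrocyte markers, Fabp7 (1.85-fold) and Aldh1l1 (2.98-fold) were higher in early and Slc1a3 (1.89-fold) in late cells. The sums of 8752 to 10254 against 4512 to 6943 units were mostly Fabp7, with means of 8432 units in early and 4638 in late cells. Hes5 (330 against 165 units) and Sox9 (89.2 against 151 units) did not pass and differed in opposite directions. Gfap (47.1 against 91.2 units) and Aqp4 (51.8 against 38.4 units) were not tested. Aldh1l1, tested through its early arrays alone, did not pass without early replicate 1 or 2 and late replicate 1 or 3 (limma adjusted p of 0.0688, 0.0643, 0.0878 and 0.0855). Fabp7 passed only without late replicate 2 (0.0476; otherwise 0.0527 to 0.115) and Slc1a3 only without early replicate 1 (0.0257; otherwise 0.0707 to 0.121). The part of these cells in the receptor differences was not tested.

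Endothelial markers summed to 410 to 2361 units in early and 265 to 1389 units in late arrays, and pericyte and mesenchyme markers to 728 to 2629 against 354 to 1097 units; of these lists 2 and 4 genes were tested and did not pass. Cldn5, a tight junction protein, read 472, 212 and 1456 units in early and 142, 822 and 93.1 units in late arrays, and Kdr, a VEGF receptor, 166, 119 and 296 units in early and 10.9, 156 and 41.9 units in late arrays (limma adjusted p = 0.404 and 0.154). Pecam1 and Cdh5 were below the medians in all 6 arrays. Microglia and blood markers summed to 839 to 5060 units in early and 490 to 760 units in late arrays. Hbb-y in early replicate 3, at 4657 units, made up most of the highest early sum. Csf1r was higher in early cells (510 ± 244 against 136 ± 27.8 units, SD, n = 3; limma adjusted p = 0.0266), a call kept only without early replicate 2 or 3 (0.0472 and 0.00867; otherwise 0.0657 to 0.0946), while C1qa and Aif1 were below the medians in all 6 arrays.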

How the data were processed

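Total RNA of EGFP-sorted cells was hybridised to Affymetrix Mouse Genome 430 2.0 arrays, 1 per sample (3 early, 3 late). The deposited values are intensities, 1 linear MAS5 signal per probe set, per the submitters' processing notes; the MAS5 version is not given in the sources used here, and no detection calls were used. The deposited signals of each array have been scaled to a mean of 500 after trimming 2% at each end, so a change in total RNA per cell cannot be read. MAS5 subtracts mismatch signals, so dim values vary strongly on the log scale, and the small number of arrays limits the precision.

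Log2 signals were compared with limma 3.58.1 (R 4.3.3; lmFit, eBayes) as early minus late in a two-sided test, and p-values were adjusted by Benjamini-Hochberg over all 23471 probe sets above their array median in at least 3 of the 6 arrays, at a threshold of 0.05. The 64 control probe sets were left out. A fold is the mean log2 difference taken back to the linear scale. Symbols came from the platform annotation, in which 34945 probe sets name 1 gene, 932 several and 9211 none; 1 probe set naming Ppard and another gene was not used. Promoter sequences came from RefSeq (GRCm38.p6); 41 of the 44 genes had at least 1 window.

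The members and gene lists were chosen with earlier results of these data known. Signals of all arrays were to be given for receptors past the threshold whose groups do not overlap and for the brightest gene of each subfamily, and from each other list up to 3 past the threshold in each direction. The test was tried on simulated arrays. The alternatives tried were quantile normalization, a block for the replicate number, median centring, an offset of 5.97 units, a floor at the array median, no filter or the 70th percentile, a variance trend with robust settings, array weights, other gene representatives, a threshold of 0.01 and leaving out arrays.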

Additional observations from a re-analysis of the deposited data

How the results depend on the processing

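Nr4a2 and Nr4a3 passed under all 19 alternatives, with differences of 2.76 to 4.78 and 2.23 to 4.68. Leaving out 1 array at a time gave 4 to 5 receptors higher in early and 1 to 4 in late cells, and 8 to 12 and 2 to 7 probe sets. Deviations of same-numbered early and late arrays correlated at -0.029, -0.075 and -0.0056 over tested probe sets, below the best other pairing in each case, so the numbers were not taken to pair the samples; with the replicate number as a block anyway, 4 receptors were higher in early and 1 in late cells, and 8 and 3 probe sets (1141 and 844 of all genes, against 1796 and 1544 without it; 2005 and 1588 of all probe sets, against 3158 and 2946). Without a filter on dim probe sets the counts were 4 and 1 receptors and 8 and 2 probe sets (893 and 585 of all genes, 1559 and 1160 of all probe sets). The filter at the 70th percentile tested 12 receptors. Of these 7 were higher in early and 2 in late cells, with 12 and 2 probe sets (1683 and 1687 of 8126 genes). With replicate 3 of both groups left out, because earlier results of these data set those arrays apart, limma called 2 receptors higher in early and 0 in late cells (7 and 5 at an unadjusted p below 0.05) and 5 and 2 probe sets (523 and 348 genes; 843 and 661 probe sets). At a threshold of 0.01, 4 receptors were higher in early and 1 in late cells, and 7 and 2 probe sets passed (875 and 553 of all genes, 1450 and 985 of all probe sets). With probe sets averaged per gene 5 receptors were higher in early and 2 in late cells (1327 and 1358 of all genes). Leaving out late replicate 1, 2 or 3 gave 1098, 1167 and 1033 genes higher in early and 668, 704 and 650 in late cells (1885, 2051 and 1781 probe sets against 1222, 1291 and 1161). Signs changed for Nr1d2 (0.00076), Rorb (-1.02) and Nr2c2 (-0.26) with probe sets averaged per gene, for Esrra with array weights (0.025) and without replicate 3 of both groups (0.099), and for Nr6a1 without the latter (-0.0027); leaving out 1 array gave -0.20 to 0.48 for Rorb and -0.35 to 0.18 for Esrra. Of these only Nr1d2 had passed. The causes of these changes were not tested. A variance trend with robust settings gave 9 receptors higher in early and 4 in late cells (2031 and 1913 of all genes). Quantile normalization, centring, the offset and the floor kept the counts of receptors within 1.5 times.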
